A study of Rattus norvegicus with 20 samples.

Results

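The 56 chemokine and chemokine receptor genes of the rat, taken as every row of the gene table whose name begins with Ccl, Cxcl, Cx3cl, Xcl, Ccr, Cxcr, Cx3cr, Xcr or Ackr and a digit, were followed in inguinal white adipose tissue (iWAT), the subcutaneous fat of the groin. They are 34 ligands and 22 receptors among the 32545 genes of the table. 53 of them had reads in more than 10 of the 20 libraries and were tested beside 17653 genes in all, and Ccl25, Ccl26 and Ccl28 did not pass that filter. The rule used names and no values.

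Chemokines are small secreted or membrane-held proteins that bind G protein-coupled receptors and set the direction in which leukocytes move. In growing fat the CC ligands of CCR2 and CCR1 are known as signals for monocytes and macrophages, while CCL19, CCL21 and CXCL13 are known as homeostatic signals that place lymphocytes and dendritic cells in lymph nodes, and CCL21 is also made by lymphatic endothelium. The atypical receptors, named Ackr, bind chemokines without G protein signalling and remove them from the tissue. Inguinal fat of rodents encloses a lymph node, so the lymph node chemokines are given with markers of lymph node and lymphatic cells beside them.

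Each of the 4 groups held 5 male ZSF1 rats, the offspring of a cross of 2 strains that each carry a mutation of the leptin receptor gene Lepr. The Cmpd 1 group were ZSF1 obese rats, homozygous for leptin receptor deficiency, fed Purina 5008 chow mixed with Cmpd 1, a dual inhibitor of the protein kinases C alpha and beta. The Food matched group were ZSF1 obese rats on no-drug Purina 5008 chow, with calorie restriction to the intake of the Cmpd 1 group in the week before. The Obese group were ZSF1 obese rats on the same chow with no treatment. The Lean group were ZSF1 lean rats of matched age, which do not lack the receptor, also on Purina 5008 chow with no treatment. The drug was given through the food, and the Lean and Obese genotypes differ in appetite and fat mass as well as in Lepr. Each library came from the depot of 1 rat.

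Libraries held 31716457 to 74784655 counted reads. Lepr was at 1.34 to 1.62 CPM in Cmpd 1, 1.41 to 2.31 CPM in Food matched, 1.24 to 1.89 CPM in Obese and 2.95 to 12.0 CPM in Lean rats, so the Food matched rats lay with the obese rats, as their titles have it, although their phenotype tag says lean. 5 libraries held transcripts of other tissues: skeletal muscle in Lean rats 1 and 2 and, weakly, in Food matched rat 5, Apob in Lean rat 5, and a gland transcript in Obese rat 4. The sum of epithelium and gland markers, Apob among them, was highest in Lean rat 2 at 131 CPM. It was 66.8 CPM in Lean rat 5, 47.5 CPM in Obese rat 4 and 28.4 CPM in Lean rat 1. Adipoq, which defines adipocytes, was at 2761 CPM or more in every library. Levels are read counts scaled to a common library size of 1e+06 (CPM) with library sizes scaled by the trimmed mean of M-values (TMM). Fold changes and p-values are those of edgeR (quasi-likelihood, Benjamini-Hochberg over the 17653 genes, 5 rats a group). A gene is called higher or lower where the fold change passed 1.5 and the adjusted p was under 0.05. The samples are separate rats by their labels.

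In the first comparison, Obese versus Lean rats, 19 of the 53 tested genes were higher and 12 were lower, which is 58.5% of them, against 22.3% of all genes tested (11.3% higher and 11% lower). The 19 held ligands and receptors of monocytes and macrophages, Ccl9, Ccl3, Ccl4, Ccl12, Ccr2 and Ccr1 among them, as well as the interferon induced Cxcl11, Cxcr4 and Cxcl16. The 12 held 3 of the 3 lymph node ligands, the eotaxins Ccl11 and Ccl24, Cxcl12, the scavenging receptors Ackr2 and Ackr3, and Cxcr2. The median log2 fold change was 0.49 over the 53 genes and -0.01 over all genes tested. Without the 5 libraries with transcripts of other tissues, an alternative chosen after the data were seen, 13 were higher and 9 lower. The calls lost there were those of Ccl2, Ccl7, Ccl12, Ccr7, Ccr9 and Cx3cr1 among the higher and Cxcr5, Ccl19 and Ccl20 among the lower genes. The fit without the 5 libraries keeps Lean rats 3 and 4 as its whole Lean group. In fits that leave out rats, here and below, the share of all genes called was not counted. Fewer rats can cost calls in any gene. These are bulk libraries, in which fewer cells of a type and less RNA per cell cannot be told apart.

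Cmpd 1 versus Food matched rats, the comparison that holds food intake near equal, gave 8 genes lower and 1 higher, 17% of the 53, against 6.19% of all genes tested (4.65% lower and 1.54% higher). Among the genes lower with Cmpd 1 were Ccl4, Ccl9, Ccr1, Ccl2, Ccl12, Ccl11 and Xcr1, and the gene higher was Ackr3. The median log2 fold change was -0.27 over the 53 genes and 0.01 over all genes tested. These groups share no rat with the Obese and Lean groups. Of the 19 genes higher in Obese than in Lean rats, 7 were lower with Cmpd 1 (36.8%), which is near the 32.7% of all genes higher in Obese rats (651 of 1991). Of the 12 lower in Obese rats 1 was higher with Cmpd 1, Ackr3 (8.33%), against 9.75% of all genes lower in Obese rats, and 1, Ccl11, was lower with Cmpd 1 too. Ccl4, Ccr1, Xcr1 and Ackr3 were called in every alternative tried, while Ccl2, Ccl9, Ccl11 and Ccl12 were lost when single rats were left out, so that 4 to 8 genes were called lower, the 4 without Cmpd 1 rat 4. limma-voom called 5 genes lower and 1 higher, without Ccl2, Ccl11 and Ccl12. Over all 17653 genes limma-voom made 1056 calls, against 1092 by edgeR. Without the 5 libraries with transcripts of other tissues Ccl3 (log2 fold change -0.59, adjusted p = 0.019) and Ccl17 (-1.07, adjusted p = 0.034) were called lower as well, and Ccl24 was called higher.

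Food restriction without the drug was compared in Food matched versus Obese rats. The paper reports that intake of the drug-fed rats gradually rose to near that of untreated obese rats by the end. The ration of the Food matched rats followed that intake, so a restriction kept at its early strength until sampling was not tested. Food matched versus Obese rats gave no call by edgeR among the 53 genes, and none (0%) among all 17653. At an unadjusted p under 0.05 edgeR had 3 of the 53 higher and 8 lower, 20.8% against 10.7% of all genes, and limma-voom and DESeq2 called 0 of the chemokine genes as well, with 10 and 69 calls among all genes. The smallest adjusted p of a chemokine gene was 0.16 by edgeR, 0.1 by limma-voom and 0.031 by DESeq2, the last at less than the fold threshold. Without the 5 libraries with transcripts of other tissues 1 gene was called, Cx3cl1, at a log2 fold change of -0.59 (adjusted p = 0.0053).

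Set against the Obese rats, whose food was not restricted, the Cmpd 1 rats had 9 of the 53 genes lower and 1 higher, 18.9% against 3.53% of all genes (2.8% lower and 0.731% higher). Among the lower genes were Ccr1, Ccl2, Ccl12, Xcr1, Ccl17, Cxcl10, Cxcl11 and Cxcr2, and the higher one was Ackr3. Without Obese rat 4 only 4 were lower. In the Cmpd 1 rats set against the Lean rats, 11 genes were higher and 8 lower, 35.8% against 16.6% of all genes (7.47% higher and 9.11% lower). Among the 11 were Ccl3, Ccl4, Ccl6, Ccl9, Ccr1, Ccr1l1, Ccr2, Xcl1, Cxcl16 and Cxcl14. The 8 were Cxcl12, Ccl11, Ccl24, Ccl19, Ccl21, Cxcl13, Cxcr2 and Ccl27. Ccl9 was called lower against the Obese rats as well without the 5 libraries with transcripts of other tissues (log2 fold change -0.82, adjusted p = 0.0045). Against the Lean rats in that fit Cxcl1 was called lower (-1.09, adjusted p = 0.021), and Cxcr4 (0.63, adjusted p = 0.0013) and Ccr8 (5.75, adjusted p = 0.041) higher. The Lean group of that fit is rats 3 and 4, both with 0 reads of Ccr8, against 3 to 11 reads in the Cmpd 1 rats. The fold change of Ccr8 is thus one at the floor. Some of these calls too were lost when single rats were left out. Against the Obese rats Ccr1 was lost without Obese rat 4 or 5 or Cmpd 1 rat 4 (log2 fold changes -0.56 to -0.53, adjusted p 0.06 to 0.068). Ccl12 was lost there without Obese rat 1, 3 or 4 or Cmpd 1 rat 2, 3, 4 or 5 (-1.41 to -1.16, adjusted p 0.056 to 0.088). Against the Lean rats Ccl19 was lost without Lean rat 1 or 2 or Cmpd 1 rat 1, 4 or 5 (-1.91 to -1.68, adjusted p 0.064 to 0.074). Ccl6 without Lean rat 5 or Cmpd 1 rat 2 (0.49 to 0.57) and Cxcl16 without Lean rat 3 or 5 or Cmpd 1 rat 2 (0.55 to 0.57) came to less than the fold threshold at adjusted p under 0.05.

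With no fold threshold, at an adjusted p under 0.05 alone, Obese versus Lean rats had 20 of the 53 genes higher and 13 lower, against 23.7% and 24.5% of all genes. Cmpd 1 versus Food matched rats then had 2 higher and 9 lower, against 11.4% of all genes in each direction. Cmpd 1 versus Obese rats had 2 higher and 11 lower, against 7.09% and 6.93%, and Cmpd 1 versus Lean rats 12 higher and 12 lower, against 20.3% and 18.6%.

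**Figure D1:**
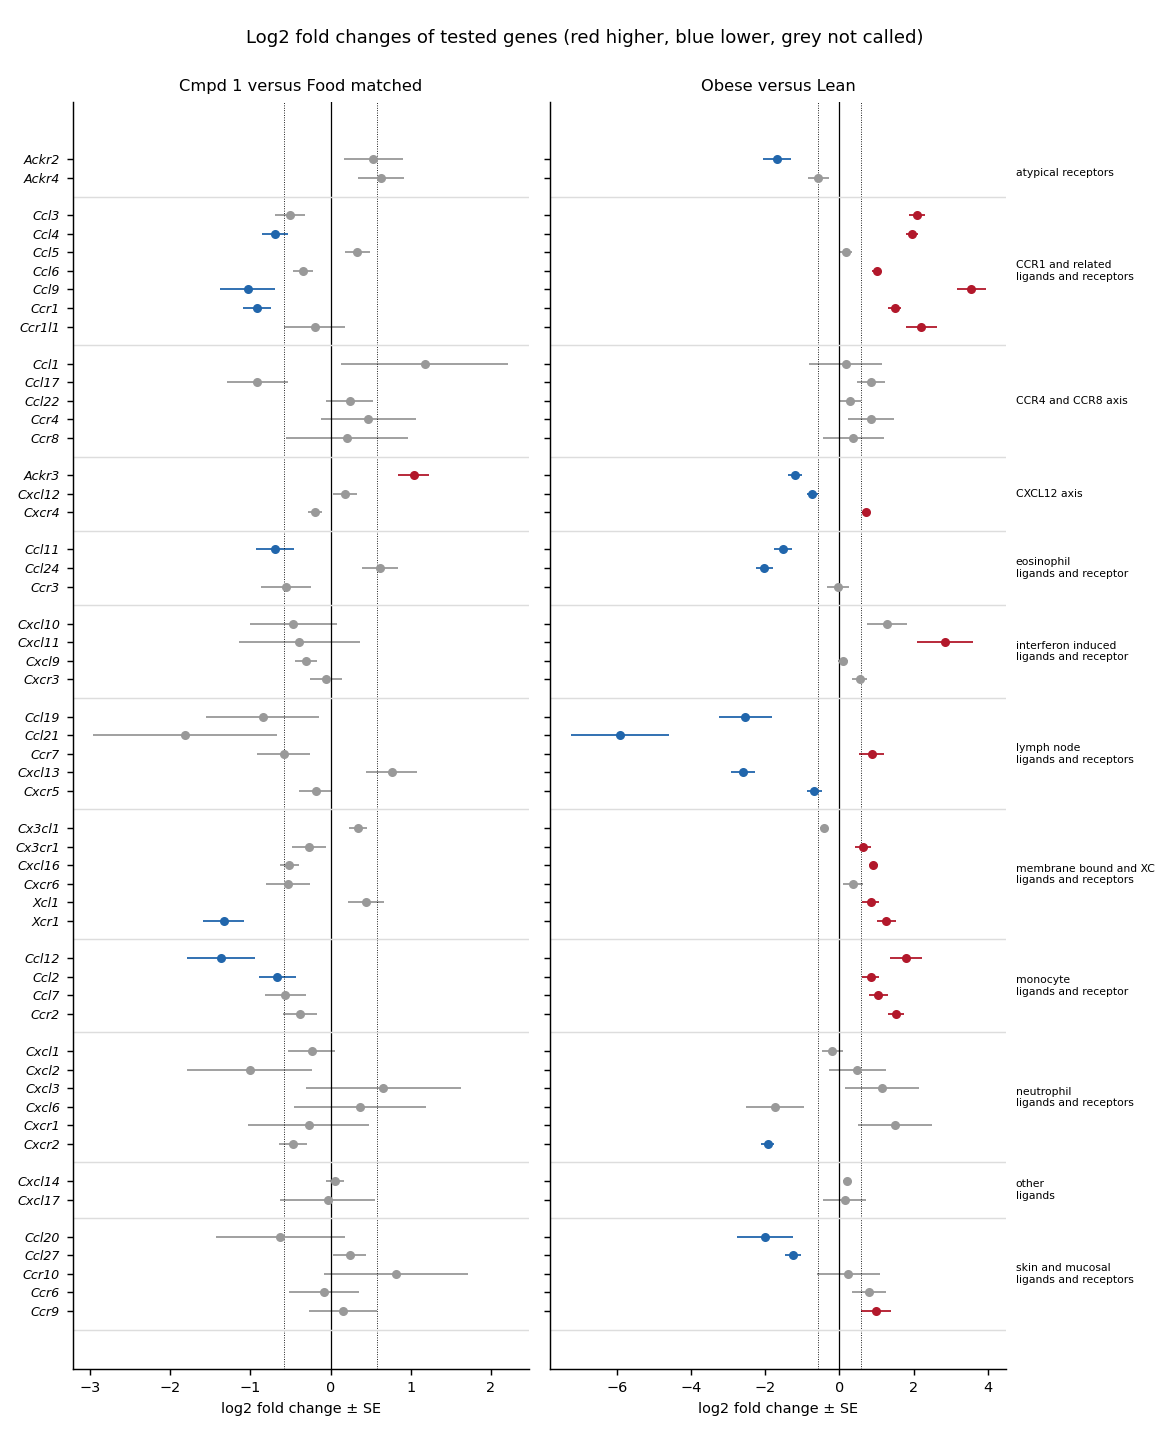
Log2 fold changes with their standard errors for tested genes, in rows grouped by role, for Cmpd 1 versus Food matched (left) and Obese versus Lean (right), each with its own scale; red is called higher, blue called lower, grey not called, and dotted lines mark a 1.5-fold change. In the right panel the red genes hold Ccl9 at 3.56 and the blue ones Ccl21 at -5.91, and the 1 red gene of the left panel is Ackr3 at 1.04.

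Per kilobase of exon length, on which genes can be set side by side, the ligand with the highest mean in every group was Ccl6, at 194 CPM per kb in Cmpd 1, 247 in Food matched, 256 in Obese and 128 in Lean rats. In Lean rats Cxcl12 (75.5), Ccl24 (52.0), Cxcl13 (49.4), Cxcl9 (38.6) and Ccl21 (34.8 CPM per kb) came next. In Obese rats the next were Ccl9 (60.0), Cxcl12 (45.5), Ccl2 (44.4), Ccl7 (43.1) and Cxcl9 (41.3 CPM per kb). The order of ligands thus differed between the genotypes by Ccl9 among others, at 5.11 CPM per kb in Lean rats, and by Ccl24, Cxcl13 and Ccl21, at 12.8, 8.15 and 0.566 CPM per kb in Obese rats. Among receptors Ccr1 had the highest mean in Obese rats, at 53.1 CPM per kb against 18.9 in Lean rats, and Ackr3 the highest in Lean rats, at 35.7 CPM per kb in Obese and 81.9 in Lean rats. The level of Ccr2 per length rests on a gene model of 286 bases and is left out of this order.

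**Figure D2:**
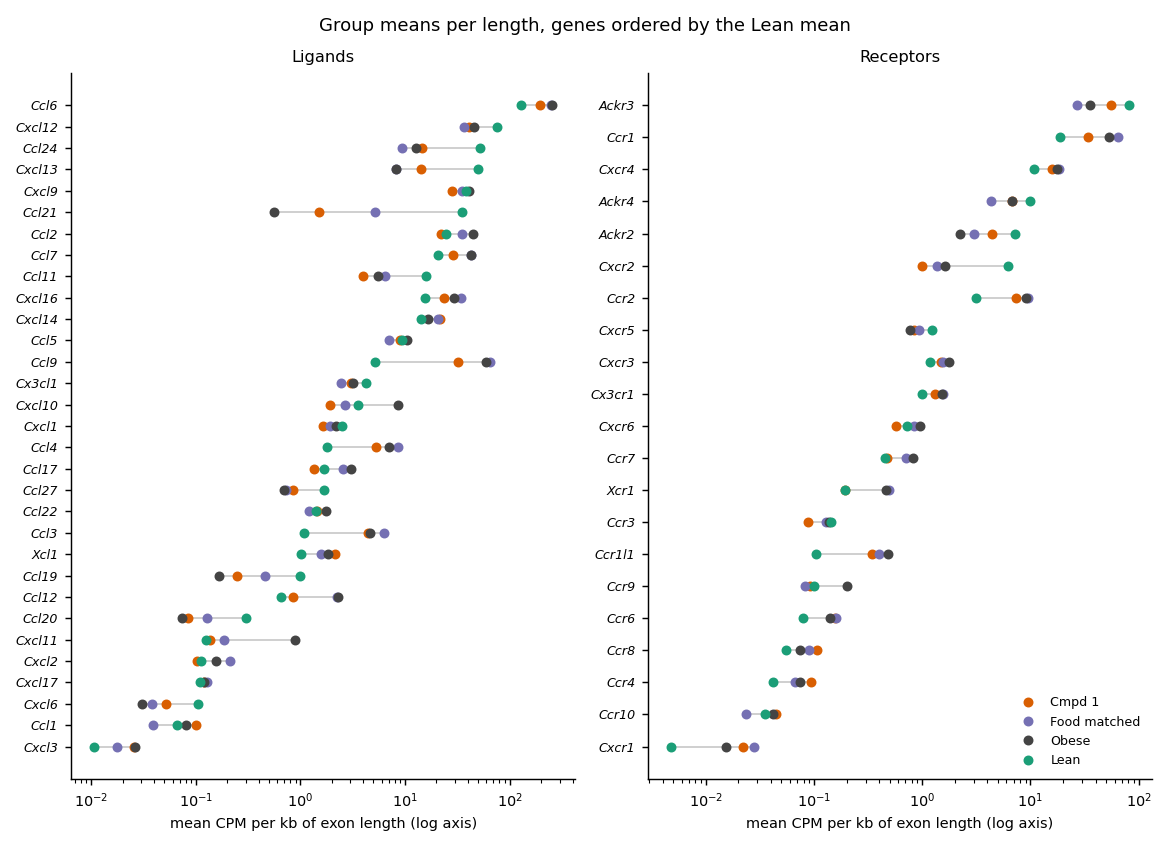
Mean CPM per kb of exon length (log axis) of the 31 tested ligands (left) and of receptors (right) in the 4 groups, genes ordered by the Lean mean, with a grey line from the lowest to the highest group mean. Ccl9 is at 60.0 in Obese and 5.11 CPM per kb in Lean rats, and Ccl21 at 0.566 in Obese and 34.8 CPM per kb in Lean rats.

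CC ligands of the MIP-1 kind and the receptor Ccr1, which guide monocytes and macrophages, were among the 19 genes higher in Obese rats. Ccl9, a CCR1 ligand made by myeloid cells, was at 52.2, 46.0, 40.6, 30.9 and 35.8 CPM in Cmpd 1 and at 81.0, 111, 81.5, 83.6 and 64.6 CPM in Food matched rats. Ccl9 was at 60.5, 56.3, 84.0, 97.2 and 89.4 CPM in Obese and at 1.62, 3.05, 10.6, 13.7 and 4.005 CPM in Lean rats. Every Obese rat lay above every Lean rat and every Cmpd 1 rat below every Food matched rat. Ccl9 was 11.8-fold higher in Obese than in Lean rats (log2 fold change 3.56, SE 0.39, adjusted p = 2.2e-07) and 2.05-fold lower in Cmpd 1 than in Food matched rats (log2 fold change -1.03, SE 0.35, adjusted p = 0.036). Without the 5 libraries with transcripts of other tissues the first was 2.58 on the log2 scale (adjusted p = 9.3e-07). The second call was lost, at log2 fold changes between -1.08 and -0.92 and adjusted p between 0.052 and 0.092, without Food matched rat 1, 2, 3 or 4 or Cmpd 1 rat 2, 3, 4 or 5. Ccl6, the related ligand with the highest mean per kb of length of all the ligands in each group, was at 263, 354, 247, 231 and 241 CPM in Cmpd 1 and at 344, 392, 388, 290.3 and 285 CPM in Food matched rats. Ccl6 was at 289, 299, 373, 420.0 and 380.3 CPM in Obese and at 200.3, 167, 187, 166 and 156 CPM in Lean rats. It was 2.01-fold higher in Obese than in Lean rats (log2 fold change 1.007, SE 0.13, adjusted p = 1.5e-06), with no overlap, and the Cmpd 1 and Food matched rats overlapped (log2 fold change -0.35, adjusted p = 0.052).

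Ccl3 and Ccl4, also known as MIP-1 alpha and MIP-1 beta, are made by activated macrophages and lymphocytes. Ccl3 was at 4.46, 3.45, 2.83, 3.00 and 3.13 CPM in Cmpd 1 and at 4.79, 6.01, 3.64, 5.91 and 3.58 CPM in Food matched rats. Ccl3 was at 3.70, 2.60, 2.99, 3.92 and 4.19 CPM in Obese and at 0.763, 0.947, 0.849, 0.990 and 0.520 CPM in Lean rats. Every Obese rat lay above every Lean rat, as it did in Ccl4. Ccl4 was at 3.69, 4.09, 3.23, 2.45 and 3.13 CPM in Cmpd 1 and at 5.69, 6.18, 5.66, 4.95 and 4.46 CPM in Food matched rats. Ccl4 was at 3.89, 3.33, 4.77, 5.72 and 4.42 CPM in Obese and at 0.959, 1.07, 1.052, 1.58 and 1.04 CPM in Lean rats. Both genes were under 1.6 CPM in Lean rats and above 2 CPM in all 15 obese rats, treated or not. Ccl3 was 4.27-fold higher in Obese than in Lean rats (log2 fold change 2.09, SE 0.20, adjusted p = 5e-08), and Ccl4 was 3.87-fold higher (log2 fold change 1.95, SE 0.17, adjusted p = 1.2e-08). With Cmpd 1, set against matched food, Ccl4 was lower (log2 fold change -0.69, SE 0.16, adjusted p = 0.004) and the difference of Ccl3 did not pass the test (log2 fold change -0.50, adjusted p = 0.062). Ccl3 overlaps an antisense gene over 779 bases, and since no source used here gives the strand option of featureCounts, reads of that gene may be among those of Ccl3. Ccl5, a ligand made by T cells, averaged 4.83 ± 1.48 CPM, 3.83 ± 0.590 CPM, 5.70 ± 0.702 CPM and 5.05 ± 0.512 CPM in Cmpd 1, Food matched, Obese and Lean rats (SD, n = 5 each), and was called in no comparison.

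Ccr1, a receptor of monocytes, macrophages and neutrophils, was at 68.6, 70.3, 64.5, 45.2 and 67.5 CPM in Cmpd 1 and at 136, 141, 132, 104 and 83.9 CPM in Food matched rats. Ccr1 was at 72.2, 76.3, 105, 118 and 119 CPM in Obese and at 25.7, 30.0, 38.5, 44.5 and 35.9 CPM in Lean rats. The groups did not overlap in either comparison: Ccr1 was 2.80-fold higher in Obese than in Lean rats (log2 fold change 1.49, SE 0.18, adjusted p = 7.3e-07) and 1.89-fold lower in Cmpd 1 than in Food matched rats (log2 fold change -0.92, SE 0.17, adjusted p = 0.00094). Cmpd 1 rats had more Ccr1 than Lean rats (log2 fold change 0.86, adjusted p = 6e-04). Ccr1l1, a rodent gene like Ccr1, was low throughout, with means of 0.367, 0.429, 0.516 and 0.111 CPM in Cmpd 1, Food matched, Obese and Lean rats, and was higher in Obese than in Lean rats (log2 fold change 2.20, SE 0.42, adjusted p = 0.00019).

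Ccl2, Ccl7 and Ccl12 are ligands of CCR2, the receptor by which blood monocytes enter tissues. Ccl2, also known as MCP-1, was at 18.0, 19.1, 22.8, 17.1 and 15.6 CPM in Cmpd 1 and at 46.7, 25.5, 28.6, 23.6 and 22.2 CPM in Food matched rats. Ccl2 was at 37.0, 33.2, 43.1, 53.2 and 18.7 CPM in Obese and at 19.04, 20.8, 17.9, 28.6 and 17.0 CPM in Lean rats. Obese rat 5 lay among the Lean rats, below Lean rats 1, 2 and 4. Ccl7 was at 28.7, 23.9, 31.2, 18.1 and 19.5 CPM in Cmpd 1 and at 61.0, 25.8, 29.0, 34.8 and 29.4 CPM in Food matched rats. Ccl7 was at 41.7, 29.9, 37.0, 54.1 and 20.7 CPM in Obese and at 19.8, 15.5, 16.2, 24.7 and 12.3 CPM in Lean rats. Here too Obese rat 5 was the lowest of its group. Ccl12 was at 0.877, 0.519, 0.437, 0.460 and 0.615 CPM in Cmpd 1 and at 3.37, 0.931, 0.881, 0.848 and 1.59 CPM in Food matched rats. Ccl12 was at 2.47, 1.27, 1.56, 2.06 and 0.397 CPM in Obese and at 0.333, 0.339, 0.628, 0.470 and 0.459 CPM in Lean rats. In each of the 3 ligands Food matched rat 1 had the highest value of its group and Obese rat 5 the lowest of its group. All 3 were higher in Obese than in Lean rats, Ccl2 1.79-fold (log2 fold change 0.84, SE 0.23, adjusted p = 0.0044), Ccl7 2.07-fold (log2 fold change 1.050, adjusted p = 0.0019) and Ccl12 3.47-fold (log2 fold change 1.79, adjusted p = 0.0017), although in each the groups overlapped through Obese rat 5. Without the 5 libraries with transcripts of other tissues none of the 3 was called, at log2 fold changes of 0.51, 0.66 and 1.38 and adjusted p of 0.21, 0.14 and 0.12.

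Ccl2 and Ccl12 were also lower in Cmpd 1 than in Food matched rats (log2 fold change -0.66, SE 0.23, adjusted p = 0.041 for Ccl2, and log2 fold change -1.37, adjusted p = 0.024 for Ccl12), and Ccl7 did not pass the test (log2 fold change -0.56, adjusted p = 0.12). These calls were near the threshold and were lost under several alternatives. With all rats kept, limma-voom called neither Ccl2 (log2 fold change -0.61, adjusted p = 0.083) nor Ccl12 (-1.08, adjusted p = 0.14). Ccl2 was also lost in edgeR with scaling by library size alone (-0.62, adjusted p = 0.051). Without Food matched rat 1 Ccl2 had a log2 fold change of -0.43 (adjusted p = 0.17) and Ccl12 of -0.85 (adjusted p = 0.13). Ccl2 also missed the threshold without Food matched rat 3 or Cmpd 1 rat 1, 2, 4 or 5 (adjusted p 0.063 to 0.096), and Ccl12 without Cmpd 1 rat 2, 3 or 4 (0.05 to 0.061). Neither Ccl2 (log2 fold change -0.16, adjusted p = 0.62) nor Ccl12 (log2 fold change 0.40, adjusted p = 0.51) passed the test in Cmpd 1 versus Lean rats, and Ccl2 was 2.001-fold lower in Cmpd 1 than in Obese rats (adjusted p = 0.0078).

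Ccr2 itself was at 1.51, 2.29, 2.29, 2.14 and 2.28 CPM in Cmpd 1 and at 3.13, 4.11, 2.25, 2.04 and 2.13 CPM in Food matched rats. Ccr2 was at 2.47, 2.24, 3.34, 2.44 and 2.53 CPM in Obese and at 0.548, 0.848, 1.015, 0.906 and 1.19 CPM in Lean rats. It was 2.87-fold higher in Obese than in Lean rats (log2 fold change 1.52, SE 0.22, adjusted p = 7.1e-06) with no overlap, and Cmpd 1 and Food matched rats overlapped (log2 fold change -0.38, adjusted p = 0.21). The gene model of Ccr2 has 286 bases, and since its reads cover a small part of the gene and may be split with those of an overlapping model, its level is uncertain.

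**Figure D3:**
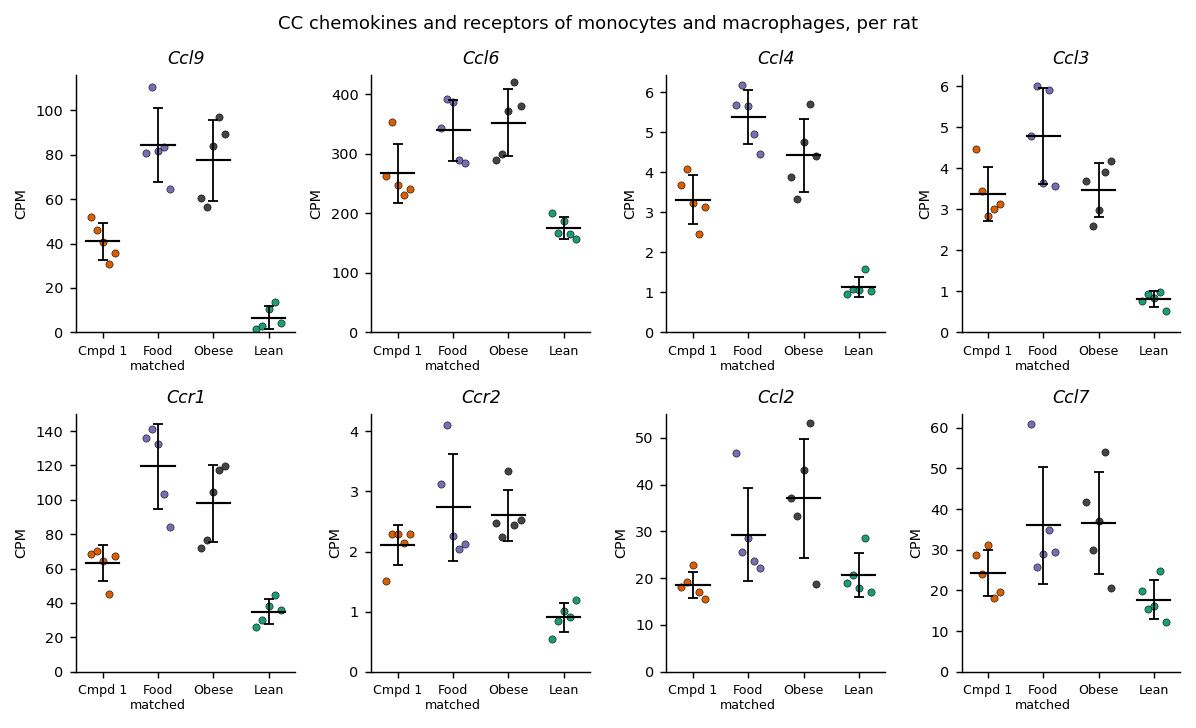
CPM of 8 CC chemokine and receptor genes in each of the 20 rats, groups Cmpd 1, Food matched, Obese and Lean from left to right; points are rats 1 to 5 of a group, bars the mean and SD. In Ccl9, Ccl6, Ccl4, Ccl3, Ccr1 and Ccr2 every Obese rat lies above every Lean rat, while in Ccl2 and Ccl7 Obese rat 5 lies among the Lean rats.

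Markers of macrophages differed between the groups too, not all in 1 direction, and their part in the result was not tested. Of 11 macrophage genes tested, 5 were higher in Obese than in Lean rats and 3 lower, and 5 were lower and 0 higher in Cmpd 1 than in Food matched rats. Their summed level was 3080 to 4170 CPM in Cmpd 1, 4100 to 7350 in Food matched, 3670 to 5150 in Obese and 2140 to 2580 CPM in Lean rats. Cd68, a lysosomal protein of macrophages, ran from 151 to 254 CPM in Cmpd 1, 285 to 439 CPM in Food matched, 259 to 363 CPM in Obese and 58.7 to 94.9 CPM in Lean rats. The 3 lower in Obese than in Lean rats were the scavenger receptor gene Cd163 (log2 fold change -1.40) and the complement genes C1qb (-0.71) and C1qc (-0.65), and Cd163 was at 37.9 to 124 CPM in Cmpd 1, 96.8 to 168 CPM in Food matched, 55.5 to 95.6 CPM in Obese and 168 to 208 CPM in Lean rats. Of 7 genes of lipid-associated macrophages 5 were higher in Obese rats and 5 lower with Cmpd 1, Mmp12 by log2 fold changes of 5.92 and -1.87 and Trem2 by 2.38 and -0.76.

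The lymph node ligands went the other way. Ccl21, which draws CCR7 bearing T cells and dendritic cells into lymphatic vessels and nodes, had 37, 16, 239, 1 and 24 reads in Cmpd 1 and 1, 1530, 95, 1 and 3 reads in Food matched rats. There were 13, 13, 20, 22 and 82 reads in Obese and 1435, 3789, 1197, 687 and 1974 reads in Lean rats. Scaled to library size, Ccl21 was at 0.560, 0.268, 4.98, 0.0306 and 0.422 CPM in Cmpd 1 and at 0.0184, 19.8, 1.61, 0.0137 and 0.0556 CPM in Food matched rats. Ccl21 was at 0.190, 0.222, 0.350, 0.397 and 1.21 CPM in Obese and at 28.1, 53.6, 22.1, 11.5 and 30.2 CPM in Lean rats. All 5 Lean rats lay above all Obese rats. Ccl21 was 60.3-fold lower in Obese than in Lean rats (log2 fold change -5.91, SE 1.32, adjusted p = 0.00088), the largest change of a chemokine gene in these comparisons. Food matched rat 2 reached the Lean range and Cmpd 1 rat 3 came next, while Food matched rats 1 and 4 and Cmpd 1 rat 4 had 1 read each, and the Cmpd 1 and Food matched groups overlapped (log2 fold change -1.81, SE 1.14, adjusted p = 0.29). Leaving out Obese rat 5 moved the Obese versus Lean value to -6.66, and leaving out Cmpd 1 rat 3 moved that of Cmpd 1 versus Lean, -4.54 with all rats, to -6.37. Without the 5 libraries with transcripts of other tissues these values were -5.05 (adjusted p = 0.016) and -3.75 (adjusted p = 0.046).

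Ccl19, the other CCR7 ligand, was at 0.181, 0.318, 0.291, 0 and 0.158 CPM in Cmpd 1 and at 0.294, 0.957, 0.186, 0.287 and 0.0185 CPM in Food matched rats. Ccl19 was at 0.0585, 0.0684, 0.0699, 0.0722 and 0.367 CPM in Obese and at 1.12, 1.16, 0.720, 0.285 and 0.520 CPM in Lean rats. It was lower in Obese than in Lean rats (log2 fold change -2.53, SE 0.72, adjusted p = 0.0066), with Obese rat 5 inside the Lean range. Without Obese rat 5 the log2 fold change was -3.46 (adjusted p = 0.0013), and without Lean rats 1 and 2, the rats with muscle transcripts, it was -1.95 (adjusted p = 0.054). Cxcl13, which draws CXCR5 bearing B cells into follicles, was at 8.41, 16.6, 16.8, 27.6 and 11.1 CPM in Cmpd 1 and at 8.52, 15.6, 8.30, 4.62 and 9.93 CPM in Food matched rats. Cxcl13 was at 10.2, 13.8, 7.17, 5.13 and 10.2 CPM in Obese and at 63.4, 31.1, 62.9, 67.6 and 55.9 CPM in Lean rats. It was 6.05-fold lower in Obese than in Lean rats (log2 fold change -2.60, SE 0.33, adjusted p = 1.7e-06) with no overlap, and was still lower in Cmpd 1 than in Lean rats (log2 fold change -1.81, SE 0.32, adjusted p = 0.00015). Cmpd 1 and Food matched rats overlapped in Cxcl13 (log2 fold change 0.76, adjusted p = 0.096), with Cmpd 1 rat 4 the highest of the obese rats.

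Of the receptors of these ligands 1 was called higher and 1 lower. Ccr7 was at 0.499, 0.486, 0.750, 0.521 and 1.12 CPM in Cmpd 1 and at 0.957, 0.711, 1.37, 1.44 and 0.611 CPM in Food matched rats. Ccr7 was at 1.17, 1.69, 0.752, 1.26 and 0.999 CPM in Obese and at 0.313, 0.622, 0.554, 1.14 and 0.581 CPM in Lean rats. It was higher in Obese than in Lean rats (log2 fold change 0.87, SE 0.33, adjusted p = 0.036), although Lean rat 4 lay inside the Obese range, and the call was lost without Lean rat 1, 2, 3 or 5 or Obese rat 1, 2 or 4 (log2 fold changes 0.70 to 0.87, adjusted p 0.053 to 0.099). Cxcr5 was at 0.802, 0.938, 1.62, 1.65 and 1.21 CPM in Cmpd 1 and at 1.18, 1.88, 1.203, 1.61 and 1.15 CPM in Food matched rats. Cxcr5 was at 1.10, 1.03, 0.996, 1.23 and 1.45 CPM in Obese and at 1.98, 1.98, 1.44, 1.96 and 1.90 CPM in Lean rats. It was lower in Obese than in Lean rats (log2 fold change -0.67, SE 0.20, adjusted p = 0.0099), and Obese rat 5 and Lean rat 3 overlapped. Cxcr5 was not called without the 5 libraries with transcripts of other tissues (log2 fold change -0.56, adjusted p = 0.16).

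Ackr2, a scavenger of inflammatory CC chemokines known from lymphatic endothelium, was at 2.22, 6.27, 8.68, 5.88 and 6.78 CPM in Cmpd 1 and at 2.34, 9.49, 3.03, 2.45 and 3.13 CPM in Food matched rats. Ackr2 was at 1.68, 4.14, 4.12, 1.84 and 3.16 CPM in Obese and at 9.73, 10.9, 7.55, 10.2 and 9.62 CPM in Lean rats. It was 3.22-fold lower in Obese than in Lean rats (log2 fold change -1.69, SE 0.38, adjusted p = 0.00094) with no overlap. Food matched rat 2, the rat with the high Ccl21, stood apart in its group, and Cmpd 1 rat 3, the second in Ccl21, had the highest Ackr2 of the Cmpd 1 rats. Other rats went differently. Cmpd 1 rat 1, next in Ccl21 in its group at 0.560 CPM, had the lowest Ackr2 of that group. Cmpd 1 rat 4, lowest there in Ccl21 at 0.0306 CPM, had Ackr2 at 5.88 CPM. Whether the 2 genes run together was not tested. Ackr4, the scavenger of CCL19, CCL21 and CCL25, averaged 13.5 ± 4.92 CPM, 8.73 ± 1.60 CPM, 13.6 ± 5.24 CPM and 20.1 ± 8.30 CPM in Cmpd 1, Food matched, Obese and Lean rats and was called in no comparison. Ackr4 overlaps Acad11 on the opposite strand over 4659 bases, so its reads are uncertain if strand was not used.

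Markers of lymphatic endothelium, like the lymph node ligands, were lower in Obese than in Lean rats. Whether the 2 run together rat by rat was not tested. Of 5 lymphatic genes 3 were lower in Obese than in Lean rats, Pdpn (log2 fold change -1.92, adjusted p = 9.5e-05), Prox1 (-3.74, adjusted p = 0.0015) and Lyve1 (-1.14, adjusted p = 0.0041). The summed level of the 5 was 60.0 to 147 CPM in Cmpd 1, 74.0 to 224 in Food matched, 62.2 to 102 in Obese and 150 to 213 CPM in Lean rats, and the highest value, 224 CPM, was that of Food matched rat 2, where Lyve1 was at 170.2 CPM. Food matched rat 2 also had the most Ccl21 of the obese rats, at 1530 reads. Some other rats had high sums with little Ccl21. Cmpd 1 rat 5 had the highest sum of its group, 147 CPM, with 24 reads of Ccl21. Cmpd 1 rat 4 (128 CPM) and Food matched rat 1 (122 CPM) had 1 read each. Among 10 B cell genes the 1 call in Obese versus Lean rats was Fcer2, which was lower (log2 fold change -2.12, adjusted p = 0.045), and the 1 call in Cmpd 1 versus Food matched rats was Fcrla, lower too (-0.75, adjusted p = 0.049). In Obese versus Lean rats their log2 fold changes were positive in 5 and negative in 5, and their summed level was 6.94 to 12.1 CPM in Cmpd 1, 7.74 to 10.5 in Food matched, 8.51 to 14.1 in Obese and 10.9 to 12.4 CPM in Lean rats. 2 of the 10 genes, chosen after their values were seen, were low in Lean rats too: Ms4a1 was at 0 to 0.269 CPM and Cd79a at 0.226 to 0.588 CPM. Most of the Lean sum came from the other B cell genes of the list. Of 11 T cell genes 5 were higher in Obese rats and 0 lower, with summed levels of 23.6 to 33.6 CPM in Cmpd 1, 24.2 to 31.9 in Food matched, 24.2 to 33.7 in Obese and 15.9 to 21.6 CPM in Lean rats. Among 4 tested genes of lymph node stroma and high endothelial venules, Fut7 was higher in Obese than in Lean rats (log2 fold change 2.03, adjusted p = 2.3e-07) and Madcam1 was lower (-2.05, adjusted p = 0.0033). Madcam1, the venule ligand of an intestinal homing integrin, was also lower with Cmpd 1, at 0 to 0.136 CPM in Cmpd 1 against 0.389 to 1.78 CPM in Food matched rats (log2 fold change -4.69, adjusted p = 0.00014). The part of these cells in the chemokine values was not tested.

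**Figure D4:**
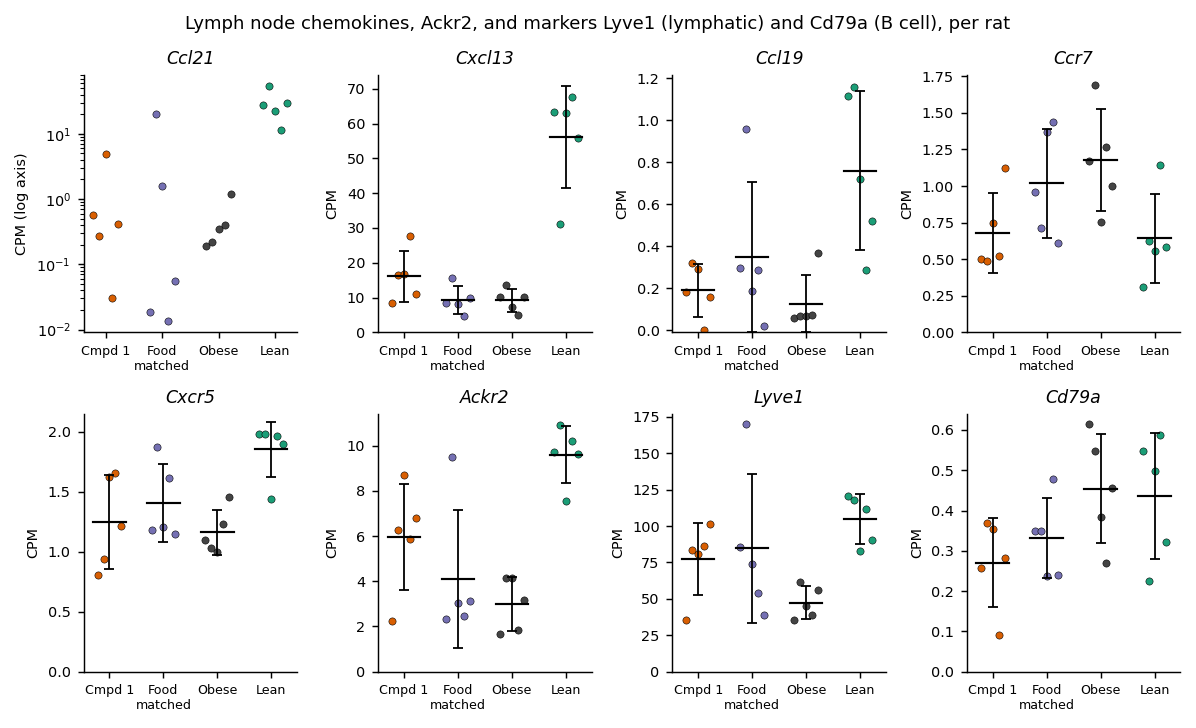
CPM of the lymph node ligands and receptors, Ackr2, the lymphatic marker Lyve1 and the B cell marker Cd79a in each of the 20 rats, groups Cmpd 1, Food matched, Obese and Lean from left to right; Ccl21 is on a log axis, and in the other panels bars are the mean and SD. Every Lean rat lies above every Obese rat in Ccl21, Cxcl13 and Ackr2, and Food matched rat 2 stands apart in Ccl21, Ccl19, Ackr2 and Lyve1.

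The promoters of the 3 lymph node ligands are shown because each of these genes was called lower in Obese than in Lean rats. Ccl19 and Ccl21 are neighbours on chromosome 5 with Ccl27, which was lower in Obese rats too. The sequences are those of RefSeq for GRCr8, from 250 bases before to 50 bases after the start of each gene, and 43 of the 56 genes had one. Capitals mark matches on either strand to GGG and CC with any 5 bases between them, a kappa B like motif, or to GAAA and GAAA with any 2 bases between them, an interferon response like motif. Matches of the first can overlap each other, and those of the second overlapped none of the first in the promoters printed here.
Ccl21, GRCr8 chr5:61777466-61777765, minus strand: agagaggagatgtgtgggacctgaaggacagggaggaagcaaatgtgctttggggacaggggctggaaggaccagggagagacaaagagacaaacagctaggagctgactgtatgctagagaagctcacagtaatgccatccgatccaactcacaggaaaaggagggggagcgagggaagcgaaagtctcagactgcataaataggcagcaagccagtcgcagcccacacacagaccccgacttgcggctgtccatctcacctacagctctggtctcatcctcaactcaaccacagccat
Ccl19, GRCr8 chr5:61761115-61761414, minus strand: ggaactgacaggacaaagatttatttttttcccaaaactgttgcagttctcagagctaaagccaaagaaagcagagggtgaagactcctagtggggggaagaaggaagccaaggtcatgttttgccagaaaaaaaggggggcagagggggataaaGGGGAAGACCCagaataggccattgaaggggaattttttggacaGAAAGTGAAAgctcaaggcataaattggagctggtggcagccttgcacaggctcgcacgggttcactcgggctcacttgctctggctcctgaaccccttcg
Cxcl13, GRCr8 chr14:13917871-13918170, minus strand: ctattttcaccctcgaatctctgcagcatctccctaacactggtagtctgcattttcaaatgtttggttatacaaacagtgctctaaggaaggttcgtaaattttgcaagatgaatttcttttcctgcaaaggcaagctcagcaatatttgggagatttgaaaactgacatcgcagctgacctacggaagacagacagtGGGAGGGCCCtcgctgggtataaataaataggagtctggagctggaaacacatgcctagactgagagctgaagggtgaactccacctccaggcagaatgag
Ccl19 held both motifs, Cxcl13 the kappa B like one and Ccl21 neither in this window. Over all 33469 promoters in RefSeq's set 47.3% held the kappa B like and 3.92% the interferon response like motif, and of the 43 promoters of chemokine genes 51.2% and 4.65% did, both near the background.

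Among the interferon induced ligands of CXCR3, the receptor of activated T cells, 1 rat stood apart. Cxcl10 was at 3.33, 1.99, 2.87, 1.13 and 1.55 CPM in Cmpd 1 and at 2.83, 3.98, 2.76, 2.87 and 2.69 CPM in Food matched rats. Cxcl10 was at 5.39, 4.38, 3.65, 32.9 and 2.56 CPM in Obese and at 3.93, 2.06, 3.45, 3.74 and 6.80 CPM in Lean rats. Obese rat 4 was the highest of the 20 rats. Cxcl11 was at 0.166, 0.302, 0.208, 0.153 and 0.246 CPM in Cmpd 1 and at 0.350, 0.220, 0.220, 0.274 and 0.370 CPM in Food matched rats. Cxcl11 was at 0.570, 0.462, 0.524, 5.25 and 0.147 CPM in Obese and at 0.431, 0.127, 0.166, 0.0168 and 0.229 CPM in Lean rats. Obese rat 4 stood alone in both, and it did not in Cxcl9, where it had 62.0 CPM within an Obese range of 45.4 to 77.9 CPM. Cxcl11 was called higher in Obese than in Lean rats (log2 fold change 2.84, SE 0.75, adjusted p = 0.0035), but without Obese rat 4 the log2 fold change was 1.14 (adjusted p = 0.073). In Cmpd 1 versus Obese rats Cxcl10 (log2 fold change -2.15, SE 0.55, adjusted p = 0.014) and Cxcl11 (log2 fold change -2.66, adjusted p = 0.022) were called lower, and without Obese rat 4 neither was, at log2 fold changes of -0.87 and -0.96 (adjusted p = 0.09 and 0.26). Cxcl10 was called lower without the 5 libraries with transcripts of other tissues, Obese rat 4 among them (log2 fold change -0.86, adjusted p = 0.04). Cxcl11 was also lost in that comparison without Cmpd 1 rat 4 (-2.58, adjusted p = 0.061). Obese rat 4 is also the library with the gland transcript, whose part in these values was not tested. Cxcl9, the most abundant of the 3, averaged 42.5 ± 5.54 CPM, 52.5 ± 9.89 CPM, 61.9 ± 11.6 CPM and 57.8 ± 6.88 CPM and Cxcr3 2.48 ± 0.758 CPM, 2.58 ± 0.467 CPM, 2.91 ± 0.321 CPM and 1.98 ± 0.515 CPM in Cmpd 1, Food matched, Obese and Lean rats, and neither passed a 1.5-fold change with an adjusted p under 0.05 in any comparison. Cxcl10 and Cxcl11 overlap Art3 on the opposite strand over 2198 and 3278 bases, whose reads could not be told apart if strand was not used.

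The promoters of Cxcl10 and Cxcl11 are shown because both genes were high in the same rat. Capitals mark the same 2 motifs.
Cxcl10, GRCr8 chr14:15988816-15989115, plus strand: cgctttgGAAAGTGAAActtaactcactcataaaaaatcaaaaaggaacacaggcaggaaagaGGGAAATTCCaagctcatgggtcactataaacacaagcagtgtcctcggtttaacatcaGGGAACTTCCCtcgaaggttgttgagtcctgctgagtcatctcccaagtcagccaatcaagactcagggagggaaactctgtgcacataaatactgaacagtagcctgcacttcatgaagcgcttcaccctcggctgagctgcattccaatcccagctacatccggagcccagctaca
Cxcl11, GRCr8 chr14:15973478-15973777, plus strand: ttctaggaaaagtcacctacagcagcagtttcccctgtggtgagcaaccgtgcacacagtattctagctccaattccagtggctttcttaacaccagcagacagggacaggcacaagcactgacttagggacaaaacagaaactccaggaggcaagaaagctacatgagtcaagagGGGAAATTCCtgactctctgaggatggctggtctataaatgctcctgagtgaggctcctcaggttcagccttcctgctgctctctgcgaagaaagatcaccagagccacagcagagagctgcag
Both held the run GGGAAATTCC, starting 187 bases before the start of Cxcl10 and 74 bases before that of Cxcl11. This exact run, looked for after the sequences had been read and on both strands, was in 37 of the 33469 promoters (0.111%) and in 4 of the 43 promoters of chemokine genes (9.3%), those of Cxcl1, Cxcl6, Cxcl10 and Cxcl11. The run was taken from Cxcl10 and Cxcl11, so their matches were fixed in advance and these shares do not measure an enrichment. In Obese rat 4 Cxcl1 was at 2.65 CPM within an Obese range of 1.16 to 3.33 CPM, and Cxcl6 at 0.108 CPM was the highest of a range of 0 to 0.108 CPM.

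Cxcl12, which retains leukocytes and progenitors through CXCR4, was at 177, 218, 235, 249 and 238 CPM in Cmpd 1 and at 171, 232, 139.6, 200.2 and 243 CPM in Food matched rats. Cxcl12 was at 279, 266, 309, 185 and 195 CPM in Obese and at 380.5, 358, 431, 452 and 426 CPM in Lean rats. It was 1.66-fold lower in Obese than in Lean rats (log2 fold change -0.73, SE 0.15, adjusted p = 0.00038) with no overlap. Cxcr4 was at 28.8, 30.4, 31.6, 24.6 and 23.5 CPM in Cmpd 1 and at 27.4, 29.3, 33.1, 35.1 and 34.1 CPM in Food matched rats. Cxcr4 was at 35.5, 30.5, 31.1, 28.2 and 28.5 CPM in Obese and at 21.7, 17.3, 18.0, 18.1 and 19.4 CPM in Lean rats. It was 1.63-fold higher in Obese than in Lean rats (log2 fold change 0.70, SE 0.09, adjusted p = 2.2e-06) with no overlap, so ligand and receptor were called in opposite directions. Neither was called in Cmpd 1 versus Food matched rats (log2 fold changes 0.18 and -0.19, adjusted p = 0.44 and 0.13).

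Ackr3, the scavenger of CXCL12 found on endothelial and stromal cells, was at 51.9, 125, 144, 98.8 and 114 CPM in Cmpd 1 and at 45.1, 61.7, 51.8, 53.5 and 47.7 CPM in Food matched rats. Ackr3 was at 52.6, 75.1, 89.0, 63.0 and 66.3 CPM in Obese and at 182, 166, 133, 177 and 134 CPM in Lean rats. It was 2.29-fold lower in Obese than in Lean rats (log2 fold change -1.196, SE 0.19, adjusted p = 2.9e-05) with no overlap, and 2.06-fold higher in Cmpd 1 than in Food matched rats (log2 fold change 1.04, SE 0.19, adjusted p = 0.00075). 4 of the 5 Cmpd 1 rats lay above all Food matched rats, and Cmpd 1 rat 1 lay among them. Against the Obese rats Ackr3 was higher with Cmpd 1 (log2 fold change 0.63, SE 0.19, adjusted p = 0.034), a call that was lost, at log2 fold changes of 0.49 to 0.65 and adjusted p of 0.058 to 0.095, without Obese rat 1, 4 or 5 or Cmpd 1 rat 2, 3, 4 or 5. Against the Lean rats the Cmpd 1 rats stayed lower by less than the 1.5-fold threshold (log2 fold change -0.57, adjusted p = 0.021).

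The eotaxins, ligands of the eosinophil receptor CCR3, were lower in Obese than in Lean rats. Ccl11 was at 3.93, 5.03, 4.17, 3.12 and 3.78 CPM in Cmpd 1 and at 5.71, 6.12, 4.52, 9.23 and 6.93 CPM in Food matched rats. Ccl11 was at 7.54, 5.68, 5.12, 4.93 and 4.70 CPM in Obese and at 20.1, 25.3, 14.5, 10.2 and 10.2 CPM in Lean rats. The Lean rats were the 5 highest. Ccl24 was at 11, 30.5, 22.4, 25.2 and 20.6 CPM in Cmpd 1 and at 10.3, 19.1, 10.5, 11.3 and 20.1 CPM in Food matched rats. Ccl24 was at 19.3, 26.8, 20.8, 14.9 and 15.7 CPM in Obese and at 88.5, 78.9, 72.9, 76.4 and 79.1 CPM in Lean rats. In both, every Lean rat lay above every other rat. Ccl24 was 4.07-fold lower in Obese than in Lean rats (log2 fold change -2.02, SE 0.23, adjusted p = 4.1e-07) and Ccl11 2.87-fold lower (log2 fold change -1.52, SE 0.23, adjusted p = 1.7e-05). Between Cmpd 1 and Food matched rats Ccl11 was lower again (log2 fold change -0.69, SE 0.23, adjusted p = 0.037), although the groups overlapped and the call was lost without Food matched rat 2, 4 or 5 or Cmpd 1 rat 1, 3, 4 or 5 (log2 fold changes -0.72 to -0.53, adjusted p 0.054 to 0.12). The difference of Ccl24 between Cmpd 1 and Food matched rats was positive and did not pass the test (log2 fold change 0.62, adjusted p = 0.057), but without the 5 libraries with transcripts of other tissues Ccl24 was called higher (0.76, adjusted p = 0.025). Ccr3 averaged 0.286 ± 0.0975 CPM, 0.418 ± 0.0972 CPM, 0.449 ± 0.149 CPM and 0.462 ± 0.142 CPM in Cmpd 1, Food matched, Obese and Lean rats and was not called. Ccl26, the third eotaxin, had reads in 6 of 20 libraries. The eosinophil granule gene Epx was at or near 0 in all groups, at no more than 0.0735 CPM in any rat. Among 4 tested eosinophil genes 1, Il5ra, was lower and 0 were higher in Obese than in Lean rats.

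**Figure D5:**
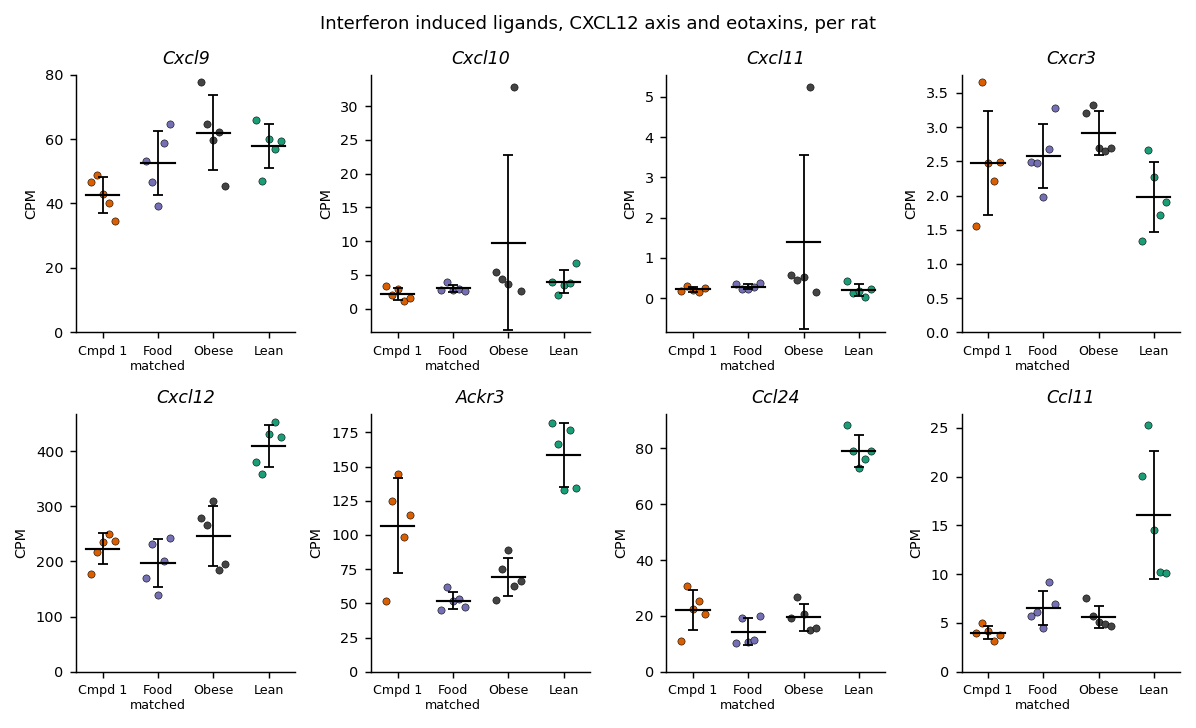
CPM of the interferon induced ligands and Cxcr3, of Cxcl12 and Ackr3 and of the eotaxins Ccl24 and Ccl11 in each of the 20 rats, groups Cmpd 1, Food matched, Obese and Lean from left to right; points are rats and bars the mean and SD. Obese rat 4 stands alone in Cxcl10 and Cxcl11, and all Lean rats lie above the others in Cxcl12, Ccl24 and Ccl11.

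Xcr1, the receptor of cross-presenting dendritic cells, was at 0.726, 1.21, 0.812, 0.643 and 0.685 CPM in Cmpd 1 and at 1.42, 2.98, 1.68, 1.61 and 2.65 CPM in Food matched rats. Xcr1 was at 1.67, 1.52, 1.503, 2.91 and 2.15 CPM in Obese and at 0.528, 0.777, 0.997, 0.890 and 0.856 CPM in Lean rats. Neither comparison showed an overlap: Xcr1 was 2.399-fold higher in Obese than in Lean rats (log2 fold change 1.26, SE 0.25, adjusted p = 0.00032) and 2.52-fold lower in Cmpd 1 than in Food matched rats (log2 fold change -1.33, SE 0.25, adjusted p = 0.00093), the largest fold of Cmpd 1 among the genes called in every alternative. The difference between Cmpd 1 and Lean rats in Xcr1 did not pass the test (log2 fold change 0.01, SE 0.26, adjusted p = 0.97). The summed level of the dendritic cell genes was 206 to 276 CPM in Cmpd 1, 293 to 426 in Food matched, 273 to 353 in Obese and 150 to 173 CPM in Lean rats, with no overlap in either comparison, and Itgax and Clec10a made up most of it. Of the 6 tested, 1 was higher in Obese than in Lean rats and 1 lower in Cmpd 1 than in Food matched rats, Itgax in both (log2 fold changes 3.09 and -0.92), and at any fold 2 were higher in Obese rats and 3 lower with Cmpd 1. Their part in the values of Xcr1 was not tested. Clec9a was at 0.968 to 2.03 CPM in Cmpd 1, 1.88 to 2.32 CPM in Food matched, 1.503 to 3.03 CPM in Obese and 2.21 to 3.35 CPM in Lean rats. Xcl1, the ligand of XCR1 made by natural killer and T cells, was at 0.802, 1.41, 0.937, 1.011 and 1.18 CPM in Cmpd 1 and at 0.883, 0.660, 0.745, 0.916 and 0.722 CPM in Food matched rats. Xcl1 was at 1.052, 0.821, 0.787, 1.08 and 0.823 CPM in Obese and at 0.470, 0.777, 0.443, 0.285 and 0.550 CPM in Lean rats. It was higher in Obese than in Lean rats (log2 fold change 0.84, SE 0.23, adjusted p = 0.0042) with no overlap, and the difference between Cmpd 1 and Food matched rats did not pass the test (log2 fold change 0.44, adjusted p = 0.17).

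Cxcl16, a membrane-bound ligand that also acts as a scavenger receptor of macrophages, was at 41.7, 45.0, 42.1, 34.8 and 39.7 CPM in Cmpd 1 and at 56.8, 71.1, 49.8, 64.7 and 48.0 CPM in Food matched rats. Cxcl16 was at 44.7, 50.5, 50.5, 54.6 and 50.5 CPM in Obese and at 28.2, 35.8, 21.9, 25.3 and 22.1 CPM in Lean rats. It was 1.88-fold higher in Obese than in Lean rats (log2 fold change 0.91, SE 0.12, adjusted p = 3.4e-06) with no overlap. Every Cmpd 1 rat lay below every Food matched rat, at an adjusted p of 0.0045, by less than the 1.5-fold threshold (log2 fold change -0.51). Its receptor Cxcr6 averaged 0.609 ± 0.270 CPM, 0.884 ± 0.0771 CPM, 0.998 ± 0.248 CPM and 0.767 ± 0.311 CPM in Cmpd 1, Food matched, Obese and Lean rats and was not called. Cxcr6 overlaps Fyco1 on the opposite strand over 1056 bases, which leaves its reads uncertain if strand was not used. Cx3cr1, the fractalkine receptor of monocytes, was at 1.39, 1.62, 1.46, 1.59 and 2.55 CPM in Cmpd 1 and at 2.60, 1.53, 1.95, 2.27 and 2.07 CPM in Food matched rats. Cx3cr1 was at 2.28, 1.71, 2.38, 1.88 and 1.95 CPM in Obese and at 0.744, 1.29, 1.81, 1.11 and 1.59 CPM in Lean rats. It was higher in Obese than in Lean rats (log2 fold change 0.64, SE 0.22, adjusted p = 0.019), the groups overlapped, and the call was lost without Lean rat 1 (log2 fold change 0.50, adjusted p = 0.05) or Obese rat 3 (0.58, adjusted p = 0.046, under the fold threshold). Its ligand Cx3cl1 averaged 9.61 ± 0.569 CPM, 7.58 ± 1.37 CPM, 10.02 ± 1.74 CPM and 13.4 ± 0.759 CPM, with every Lean rat above every Obese rat and a change under 1.5-fold (log2 fold change -0.42, adjusted p = 0.0052).

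The neutrophil ligands were low and not called. Cxcl1 averaged 1.52, 1.79, 2.04 and 2.33 CPM in Cmpd 1, Food matched, Obese and Lean rats, and Cxcl2, Cxcl3, Cxcl6 and the receptor Cxcr1 had group means of 0.226 CPM or less. Cxcr2, the main neutrophil receptor of these ligands, was the exception at 0.998, 1.17, 1.33, 1.32 and 1.77 CPM in Cmpd 1 and at 2.01, 2.13, 1.68, 1.52 and 1.76 CPM in Food matched rats. Cxcr2 was at 1.65, 2.87, 1.83, 1.91 and 2.45 CPM in Obese and at 7.54, 6.63, 8.36, 9.69 and 8.84 CPM in Lean rats. It was 3.82-fold lower in Obese than in Lean rats (log2 fold change -1.94, SE 0.17, adjusted p = 1.2e-08), with every Lean rat above every other rat, and lower in Cmpd 1 than in Obese rats (log2 fold change -0.70, SE 0.17, adjusted p = 0.011), a change that came to -0.58, under the fold threshold, without Obese rat 2. The neutrophil marker Mpo was lower in Obese than in Lean rats as well (log2 fold change -1.96, adjusted p = 7.7e-11), at 109.6 to 143 CPM in Cmpd 1, 80.9 to 125 CPM in Food matched, 109 to 147 CPM in Obese and 467 to 559 CPM in Lean rats, while Csf3r was higher (log2 fold change 0.60, adjusted p = 0.003) and S100a9 stayed between 0.474 and 3.69 CPM in all rats. Of 6 mast cell genes 3 were lower and 0 higher in Obese than in Lean rats, led by Cpa3 (log2 fold change -1.40). The part of either cell type in Cxcr2 was not tested.

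Of the remaining genes, the ligand of CCR10, Ccl27, was at 0.650, 0.670, 0.646, 0.827 and 0.773 CPM in Cmpd 1 and at 0.571, 0.401, 0.796, 0.643 and 0.611 CPM in Food matched rats. Ccl27 was at 0.628, 0.787, 0.507, 0.379 and 0.617 CPM in Obese and at 1.66, 1.40, 1.15, 1.21 and 1.56 CPM in Lean rats. Every Lean rat lay above every Obese rat, and Ccl27 was 2.38-fold lower in Obese than in Lean rats (log2 fold change -1.25, SE 0.21, adjusted p = 4e-05). Ccl20, the ligand of CCR6, was lower too, with group means of 0.239 CPM or less (log2 fold change -2.01, adjusted p = 0.033), but without Lean rat 5 the log2 fold change was -1.25 (adjusted p = 0.18), and the call was also lost without Obese rat 3, 4 or 5 (adjusted p 0.068 to 0.074). With all rats kept, limma-voom did not call Ccl20 (adjusted p = 0.062). Ccr9, the receptor of gut homing T cells, averaged 0.517 CPM in Obese and 0.258 CPM in Lean rats (log2 fold change 0.98, adjusted p = 0.048), a call lost without Lean rat 1, 2 or 3 or Obese rat 1, 2 or 4 (adjusted p 0.071 to 0.1). With all rats kept, Ccr9 was lost in edgeR with scaling by library size alone, no filter on low counts, the replicate block or only the 2 groups in the fit (adjusted p 0.051 to 0.063). Ccl17, a ligand of CCR4, averaged 0.379 ± 0.161 CPM in Cmpd 1 and 0.864 ± 0.164 CPM in Obese rats (log2 fold change -1.18, SE 0.39, adjusted p = 0.046), and this call was lost without any single rat of the 2 groups except Cmpd 1 rat 5 (adjusted p 0.055 to 0.11). With all rats kept, Ccl17 was lost in limma-voom, and in edgeR with scaling by library size alone, no filter on low counts or the replicate block (adjusted p 0.051 to 0.055). Cxcl14, a ligand made by adipocytes and epithelia, averaged 34.8 ± 4.43 CPM, 33.6 ± 4.46 CPM, 26.6 ± 2.69 CPM and 23.1 ± 4.01 CPM in Cmpd 1, Food matched, Obese and Lean rats and was higher in Cmpd 1 than in Lean rats at the fold threshold (log2 fold change 0.59, SE 0.11, adjusted p = 0.00035), a change under 1.5-fold without Lean rat 2 or 5 or Cmpd 1 rat 2 (log2 fold changes 0.51 to 0.58). Ccl22 averaged 2.10 to 3.05 CPM over the groups, and Ccl1, Ccr4, Ccr6, Ccr8, Ccr10 and Cxcl17 had group means of 0.227 CPM or less. None of these 7 was called.

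Of the genes that act with chemokines but fall outside the names, 36 signalling genes below the receptors were tested, and in Obese rats 18 were higher than in Lean rats and 0 lower, 50% against the 22.3% of all genes. Those with small adjusted p included Pik3cd, a lipid kinase of leukocytes (log2 fold change 1.81), the Src family kinase Fgr (1.26) and Dock2, the exchange factor by which leukocytes turn chemokine signals into movement (1.51). In Cmpd 1 versus Food matched rats 6 of the 36 were lower and 0 higher, 16.7% against the 6.19% of all genes called either way. Of 16 regulators of chemokine genes 2 were higher in Obese rats and 0 lower, Irf8 (log2 fold change 0.83) and Il6 (2.398). That is 12.5%, against 11.3% of all genes called higher and 22.3% called either way. With no fold threshold 8 of the 16 were higher and 0 lower, against 23.7% and 24.5% of all genes. Of 9 chemoattractants and receptors with other names 2 were lower and 0 higher in Obese than in Lean rats. That is 22.2%, against 22.3% of all genes called either way and 11% called lower. The 2 were the chemerin gene Rarres2 (log2 fold change -0.97) and the chemerin receptor Gpr1 (-1.93). In Cmpd 1 versus Food matched rats 1 of the 9 was higher, Gpr1 (1.15, adjusted p = 0.025), and 1 lower. Of 6 proteases that trim or release chemokines, Mmp12 (log2 fold change 5.92), Mmp9 (3.30) and Adam17 (0.59) were higher in Obese than in Lean rats and Dpp4 (-2.01) was lower, and Mmp12 was the 1 gene of the 6 called with Cmpd 1.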

How the data were processed

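The authors prepared stranded mRNA libraries from iWAT, mapped the reads to the rat genome rn6 with STAR and counted uniquely mapped reads per Ensembl gene with featureCounts. What the authors deposited is 1 table of raw counts, unfiltered, with 32545 genes and 20 libraries. The submitters' processing notes name STAR 2.5.2, Subread 1.5.1 and the human build GRCh38, although identifiers and positions in the table are those of the rat. Whether counting used strand is not given in the sources used here. Near-identical gene copies can lose reads to unique mapping. All columns of the table belonged to the 20 samples.

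A gene was tested if more than 10 libraries had reads of it, which left out 14892 genes, 10187 of them without any read. The quasi-likelihood model of edgeR 4.0.16 (R 4.3.3) had 1 term for each of the 4 groups and 16 residual degrees of freedom, and Benjamini-Hochberg adjustment ran over 17653 genes. CPM use TMM-scaled library sizes. Calls need an adjusted p under 0.05 and a change of more than 1.5-fold. limma-voom (limma 3.58.1), DESeq2 1.42.0, other scalings and filters, fits on the 2 groups alone, a block on the rat number and fits without single rats were tried. The model was tested on simulated data first. Promoters come from RefSeq (GRCr8), matched by symbol. Each of the 5 comparisons shares a group with at least 1 other, while the comparison of genotypes and that of drug with matched food have none in common.

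The genes, the role lists, the marker and pathway lists and the tests were chosen with earlier results of these data known. Values in every rat are given for genes called in Obese versus Lean or in Cmpd 1 versus Food matched with a mean of at least 1 CPM in some group and for the lymph node genes, and Cxcl10 was added after its values were seen. Of other lists at most 4 genes are named, those with the smallest adjusted p in Obese versus Lean, except where the text says otherwise, and Epx, Il6, Clec9a, Fcrla, Cd163, C1qb, C1qc and S100a9 were named after their values were seen. Some genes are not reported here, although the counts and medians include them.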

Additional observations from a re-analysis of the deposited data

Results flagged for a closer look

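In 17 of 126 groups of 5 rats the highest or the lowest rat lay far from the other 4, measured by its gap to the nearest of them over the range of the group. The cutoff, 0.71 of the range, is passed in about 1 group in 20 where the values are independent and normally distributed. CPM need not be so distributed, and the same rats recur over the genes. The 17 of 126 therefore cannot be set against that rate. 14 of the 17 were single high rats.

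Food matched rat 2 was high in Ccl21 (19.8 CPM), Ackr2 (9.49 CPM) and Cxcl10 (3.98 CPM), and Food matched rat 1 in Ccl2 (46.7 CPM) and Ccl7 (61.0 CPM). Obese rat 4 was high in Cxcl10 (32.9 CPM) and Cxcl11 (5.25 CPM), and Obese rat 3 in Ccr2 (3.34 CPM).

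Among the Cmpd 1 rats, rat 3 was high in Ccl21 (4.98 CPM) and Ccl5 (7.48 CPM), rat 2 in Ccl6 (354 CPM) and Cxcl14 (42.6 CPM), and rat 5 in Cx3cr1 (2.55 CPM), while rat 4 was low in Ccr1 (45.2 CPM) and rat 1 low in Ccr2 (1.51 CPM). Among the Lean rats, rat 4 was high in Ccl4 (1.58 CPM) and rat 3 low in Cxcr5 (1.44 CPM).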

How the results depend on the processing

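No called gene changed direction under any alternative. Of the genes called, 21 of 31 in Obese versus Lean, 5 of 9 in Cmpd 1 versus Food matched, 3 of 10 in Cmpd 1 versus Obese and 15 of 19 in Cmpd 1 versus Lean were called under every alternative tried. In Cmpd 1 versus Food matched, 2 genes in place of 1 were higher with library sizes alone, DESeq2, only the 2 groups in the fit, no fold threshold, the replicate block, or without the 5 libraries with transcripts of other tissues, and 5 in place of 8 were lower with limma-voom. In Food matched versus Obese 1 gene in place of 0 was lower without the 5 libraries. In Cmpd 1 versus Obese 0 in place of 1 were higher with limma-voom, only the 2 groups in the fit or without the 5 libraries, and 2 with no fold threshold or the replicate block. The cause was not tested.

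Leaving out each rat in turn gave 16 to 20 genes higher and 11 to 13 lower in Obese versus Lean, 1 to 4 higher and 4 to 8 lower in Cmpd 1 versus Food matched, 0 higher and 0 lower in Food matched versus Obese, 0 to 2 higher and 4 to 10 lower in Cmpd 1 versus Obese, and 8 to 12 higher and 7 to 12 lower in Cmpd 1 versus Lean. The share of all genes called in each of these fits was not counted, so the ranges cannot be set against it.

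The rat numbers do not pair the samples: over 30 same-numbered pairs the correlation of deviations averaged 0.006 (-0.102 to 0.146), and 6 of 20 rats correlated best with their own number. The replicate block is given for that reason only here.

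Depth limits the genes near or under 0.1 CPM: the standard errors of Ccl1, Cxcl3 and Cxcr1 in Obese versus Lean were 0.98, 0.99 and 0.99 on the log2 scale.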

Other observations

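37 of the 56 genes lay in 10 clusters with neighbours no more than 200 kb apart in the coordinates of the table (rn6). On chromosome 5 (58159066 to 58198782) Ccl27, Ccl19 and Ccl21 were all lower in Obese than in Lean rats. On chromosome 10 the cluster of Ccl2, Ccl7, Ccl11, Ccl12 and Ccl1 (69412017 to 69537882) held 3 genes higher in Obese rats and 1 lower, Ccl11, and 3 of its 5 genes were lower with Cmpd 1 than with matched food. The second cluster there, of Ccl5, Ccl9, Ccl6, Ccl3 and Ccl4 (70739800 to 70886355), held 4 higher in Obese rats. The 3 calls with Cmpd 1, Ccl2, Ccl11 and Ccl12, were each lost under some alternatives. Of the 53 genes tested 35.8% were higher and 22.6% lower in Obese rats, against 11.3% and 11% of all genes. With Cmpd 1 15.1% of the 53 were lower, against 4.65% of all genes. Other clusters held no call in either comparison, those of Cxcl2, Cxcl1, Cxcl3 and Cxcl6 and of Ccl17, Cx3cl1 and Ccl22 among them. No test was made of position.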
